A study of Mus musculus with 24 samples.

Results

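The genes described here are 8 transcription factors that direct the subsets of natural killer T (NKT) cells, namely Zbtb16, Tbx21, Eomes, Gata3, Rora, Maf, Runx3 and Zbtb7b. They were chosen by symbol and are 8 of the 24447 genes in the count matrix, of which 14521 had a count in any cell. Single NK1.1+CD3e+ cells had been sorted from the perfused livers of young adult mice of the WT, Jα18-deficient and CD1d-deficient genotypes. The cells were hand-picked and their RNA was sequenced using unique molecular identifiers (UMIs). The WT mice were purchased C57BL/6 mice. The deficient mice came from another laboratory, and their strain background is not stated in the sources used here. The labels list 24 libraries, 8 per genotype, but a cell in the matrix is named only by its genotype and a number, so each genotype was 1 pool of cells. Neither the number nor the sex of the mice is stated in the sources used here. The Jα18-deficient mice lack a joining segment of the receptor of type I NKT cells, and older lines of this kind can also lack neighbouring segments. In the CD1d-deficient mice, which lack the molecule that presents lipids to NKT cells, the related gene Cd1d2 had not been deleted. The sort took all NK1.1+CD3e+ cells, so the pools of both deficient genotypes hold NK1.1+ T cells that need not be NKT cells.

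NKT cells acquire their effector programme in the thymus. PLZF, the zinc finger protein made from Zbtb16, drives innate-like effector behaviour and is the shared factor of the lineage. T-bet, made from Tbx21, directs the NKT1 subset that secretes interferon-γ, and its T-box relative Eomes marks cytotoxic cells. GATA3 directs the NKT2 subset and its interleukin 4, while RORα (Rora) and c-Maf (Maf) take part in the programme of the NKT17 subset, which secretes interleukin 17. Runx3 silences Cd4 and supports Cd8a in conventional T cells, and ThPOK (Zbtb7b) does the reverse.

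By the NCBIM37 (mm9) annotation, Zbtb16 lies on chromosome 9 from 48462416 to 48644050 on the minus strand. On the same chromosome, plus strand, are Rora, from 68501593 to 69236053, and Eomes, from 118387330 to 118395250. Tbx21 is on chromosome 11 (96959385 to 96976645, minus), Gata3 on chromosome 2 (9778705 to 9811661, minus) and Maf on chromosome 8 (118206842 to 118231694, minus). Runx3 is on chromosome 4 (134676567 to 134733905, plus) and Zbtb7b on chromosome 3 (89181566 to 89198698, minus). The counts are per gene, so isoforms of these genes cannot be told apart.

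The pools held 623 WT, 725 Jα18-deficient and 387 CD1d-deficient cells, with medians of 40467, 46670 and 13508 UMIs per cell. No cell name was shared between pools. Levels are given as UMIs of a gene per 1000000 UMIs of the pool (CPM), which were not adjusted for gene length and therefore are compared for 1 gene between cells, not between genes. For shares of cells, every cell was thinned at random to 10000 UMIs, which left 523 WT, 632 Jα18-deficient and 227 CD1d-deficient cells and dropped 100, 93 and 160. The same 353 cells fall outside the filter stated in the study's methods, which kept cells with over 500 genes and 10000 to 600000 UMIs, and all levels below include them unless the stated filter is named. Intervals are exact 95% Poisson or Clopper-Pearson intervals and cover counting error only, not differences between mice. Cd3e, a subunit of the T cell receptor complex, was at 196 to 352 CPM and Klrb1c, which encodes NK1.1, at 723 to 956 CPM, so the markers of the sort were present in each pool. Of genes that T cells should lack, the myeloid list of 6 genes summed to 95.2 CPM in WT, 29.6 in Jα18-deficient and 626 in CD1d-deficient cells, with none of its genes at 0. Most of that sum was Lyz2, a lysozyme of phagocytes, at 588 CPM in the CD1d-deficient pool. The B cell list summed to between 6.13 and 14.4 CPM, the endothelial list to between 1.79 and 11.6 CPM and the hepatocyte list to between 0.757 and 9.999 CPM. Hbb-b1 and Hba-a1 were at 0 throughout.

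Spi1, a factor of myeloid and B cells, was used to show what a stray transcript looks like here. After thinning, a Spi1 UMI was found in 3.44% of WT cells, 1.90% of the Jα18-deficient and 13.2% of the CD1d-deficient cells, but only 2 of all 1735 cells held 10 or more. Of the cells with a Spi1 UMI, 75.1% held exactly 1. Tbx21 and Gata3 behaved differently, since 18.5% and 20.4% of the cells with a UMI held exactly 1, and 473 and 431 cells held 10 or more. Maf and Zbtb7b lay between, at 56.0% and 54.9% with exactly 1 UMI and 65 and 54 cells with 10 or more. A share at or below that of Spi1 in the same pool is not told apart from background below, and cells with 10 or more UMIs are given beside it. Spi1 is itself on the myeloid list, whose sum was highest in the CD1d-deficient pool. The mark is therefore stricter in that pool, and a share below it there does not show that a factor was absent.

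Tbx21 transcripts were widespread in all 3 genotypes. Their level was 184 CPM (95% interval 179 to 188) in WT, 246 CPM (242 to 250) in Jα18-deficient and 203 CPM (195 to 210) in CD1d-deficient cells. The thinned shares of cells with a UMI were 55.3% in WT, 61.1% in the Jα18-deficient and 49.3% in the CD1d-deficient pool. The intervals of these shares were 50.9 to 59.6%, 57.2 to 64.9% and 42.7 to 56.0%, so neighbouring pools overlapped in the order and the pools at its ends did not. Cells with 10 or more Tbx21 UMIs numbered 179, 234 and 60.

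Eomes, by contrast, was nearly confined to a few cells. It had 21 UMIs in 6 WT cells, 198 UMIs in 33 Jα18-deficient cells and 32 UMIs in 5 CD1d-deficient cells, which gave 0.616, 3.27 and 2.20 CPM. The thinned shares of 0.382%, 1.74% and 1.32% did not exceed those of Spi1 in the same pools. What set Eomes apart from Spi1 was a group of 9 cells with 11 to 41 UMIs, of which 1 was WT, 7 were Jα18-deficient and 1 was CD1d-deficient. The same cells are described again with the other factors they held.

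Gata3 transcripts were widespread too, within a narrower range between the pools. It was at 205 CPM (200 to 210) in WT, 189 CPM (185 to 192) in Jα18-deficient and 162 CPM (155 to 168) in CD1d-deficient cells. The thinned shares of 49.7%, 48.3% and 44.5% had overlapping intervals (45.3 to 54.1%, 44.3 to 52.2% and 37.9 to 51.2%). A difference in the share of Gata3+ cells was therefore not detectable at this depth.

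Zbtb16 transcripts were found in few cells of any pool. WT cells had 47.5 CPM, with a UMI in 13.0% of thinned cells (10.2 to 16.2%) and 41 cells with 10 or more UMIs. Jα18-deficient cells had 27.1 CPM, with a UMI in 7.91% (5.93 to 10.3%) and 26 cells with 10 or more. CD1d-deficient cells had 44.3 CPM but a UMI in only 3.08% (1.25 to 6.25%), below the 13.2% of Spi1, and 2 cells with 10 or more. The level and the share thus gave different orders, and the 5 cells with the most UMIs held 95.5% of all Zbtb16 UMIs in the CD1d-deficient pool, against 55.9% in the Jα18-deficient and 28.1% in the WT pool. The CD1d-deficient level of Zbtb16 was set by these few cells and no order of the pools is read from it.

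Rora fell in level and in share from WT through Jα18-deficient to CD1d-deficient cells. It was at 197 CPM (193 to 202) in WT, 126 CPM (124 to 129) in Jα18-deficient and 83.2 CPM (78.5 to 88.0) in CD1d-deficient cells. The thinned shares stepped down in the same order, from 41.9% (37.6 to 46.2%) through 28.01% (24.5 to 31.7%) to 15.9% (11.4 to 21.3%), and none of these intervals overlapped. Cells with 10 or more Rora UMIs numbered 153, 124 and 19. This order could not be tested, since each genotype was 1 pool and the deficient pools also differed from WT in the classes of cells they held, as given below.

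Maf was at 66.6 CPM (63.8 to 69.4) in WT, 14.8 CPM (13.8 to 15.8) in Jα18-deficient and 31.9 CPM (29.0 to 34.9) in CD1d-deficient cells. Its thinned share was 15.9% (12.8 to 19.3%) in WT, 6.65% (4.83 to 8.88%) in Jα18-deficient and 6.61% (3.75 to 10.7%) in CD1d-deficient cells, the last of these under the share of Spi1. Both deficient pools were therefore below WT in level and share, but their order relative to each other rested on the 5 top cells, which held 81.0% of the Maf UMIs in the CD1d-deficient pool.

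Runx3 ran the other way. It was at 102 CPM (98.7 to 106) in WT, 141 CPM (138 to 144) in Jα18-deficient and 177 CPM (170 to 184) in CD1d-deficient cells. The thinned shares were 31.7% (27.8 to 35.9%), 38.4% (34.6 to 42.4%) and 51.5% (44.8 to 58.2%), so that the CD1d-deficient interval was clear of the others and the WT and Jα18-deficient intervals overlapped.

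Zbtb7b, the counterpart of Runx3, was at 38.1 CPM (36.1 to 40.3) in WT, 19.3 CPM (18.2 to 20.4) in Jα18-deficient and 11.4 CPM (9.69 to 13.2) in CD1d-deficient cells. Its thinned shares were 11.9% (9.21 to 14.9%), 8.86% (6.76 to 11.4%) and 3.96% (1.83 to 7.39%), the last below that of Spi1. WT and CD1d-deficient cells were apart in both measures.

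**Figure D1:**
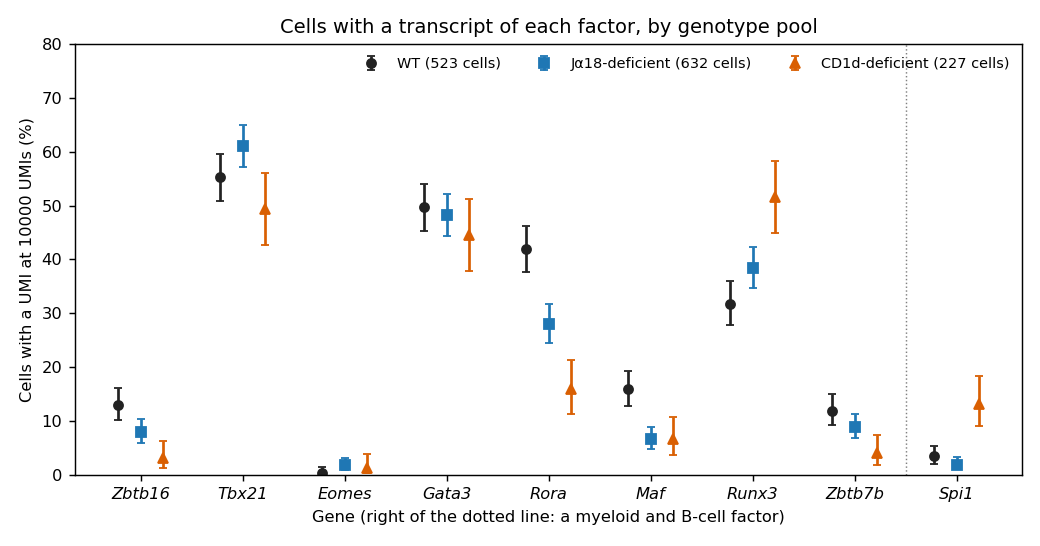
Share of cells (%) with at least 1 UMI of each factor after thinning to 10000 UMIs, for WT, Jα18-deficient and CD1d-deficient cells, with exact 95% intervals for counting error. Rora steps down from 41.9% to 15.9% and Runx3 steps up from 31.7% to 51.5% from WT to CD1d-deficient cells. Tbx21 and Gata3 stay between 44.5% and 61.1%. Spi1 on the right is a factor of myeloid and B cells, given for comparison.

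As ratios between pools, 2 of the 8 factors differed by over 2-fold between Jα18-deficient and WT cells, where 21.2% of all tested genes did so. Eomes was one of them, with a log2 ratio of 2.41 (1.76 to 3.13), but with 21 UMIs in WT it passed the minimum of 100 UMIs only through the 198 of the Jα18-deficient pool, so its place in the count is no result. Its ratio moved to 3.25 with thinned cells and to 5.40 without the 5 cells with the most Eomes UMIs in each pool. Maf was the other, with a log2 ratio of -2.17 (-2.28 to -2.06), which was -0.77 and no longer past 2-fold when cells were weighted equally. Between CD1d-deficient and WT cells the count was 3 of the 7 factors with at least 100 UMIs in the pair, against a background of 24.5%. All 3 were lower in CD1d-deficient cells, as were 12.3% of tested genes, with log2 ratios of -1.25 for Rora (-1.34 to -1.16), -1.06 for Maf (-1.21 to -0.92) and -1.75 for Zbtb7b (-1.99 to -1.51). Between the deficient genotypes, 1 of 8 factors differed by over 2-fold, where 27.3% of genes did, and this was Maf, with a log2 ratio of 1.11. That ratio changed sign to -0.51 when cells were weighted equally and to -0.28 without the 5 cells with the most Maf UMIs in each pool, so it belongs to a handful of cells. Past 1.5-fold the counts were 5 of 8, 4 of 7 and 4 of 8, against 39.5%, 43.9% and 46.6% of tested genes. With so few factors these counts do not stand apart from the share of all genes, and depth, the classes of cells and the myeloid transcripts differ between the pools as well and cannot be told apart from the genotype. In pools of this kind, fewer cells with a transcript and less transcript per cell cannot be told apart from the summed level alone.

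The genes that these factors are known to work with were described by the same ratio. Of 15 genes of the NKT1 programme, 3 were over 2-fold above WT in the Jα18-deficient pool and 0 below, and 6 were above and 0 below in the CD1d-deficient pool. Over all tested genes, 21.2% and 24.5% were past 2-fold in either direction in these comparisons, so that the count in Jα18-deficient cells was near the background. Gzma, encoding granzyme A, was at 581 CPM in WT, 1295 CPM in Jα18-deficient and 3309 CPM in CD1d-deficient cells, and Ncr1, encoding the receptor NKp46, was at 32.5, 139 and 260 CPM. Ccl5, a chemokine of cytotoxic cells, was at 4654, 9742 and 19284 CPM. Of the 10 tested genes of the NKT2 programme, 3 were lower and 0 higher in Jα18-deficient cells, and 4 were lower and 0 higher in CD1d-deficient cells. Il4, encoding interleukin 4, was at 150 CPM in WT, 75.3 CPM in Jα18-deficient and 35.4 CPM in CD1d-deficient cells, while Gata3 in the same pools stayed within 162 to 205 CPM. Of 18 partner factors, 3 were higher and 1 lower in Jα18-deficient cells, and of 16 tested in CD1d-deficient cells 2 were higher and 2 lower. Id3, an inhibitor of E proteins, was at 5.92, 33.6 and 23.1 CPM and Nfil3, a factor of innate lymphoid cells, at 9.50, 29.3 and 44.2 CPM in the WT, Jα18-deficient and CD1d-deficient pools.

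Of the NKT17 programme, the cytokine genes Il17a, Il17f and Il22 were at 0 in all pools, where 3 UMIs in a pool would have been 0.0880 CPM in WT, 0.0496 CPM in Jα18-deficient and 0.206 CPM in CD1d-deficient cells. Of its 4 genes with enough UMIs, 2 were over 2-fold higher and 0 lower in Jα18-deficient cells than in WT. These 2 were Il23r and Aqp3. Of 3 tested in CD1d-deficient cells 0 were higher or lower. Over all tested genes, 21.2% and 24.5% were past 2-fold in either direction in these comparisons. Il23r, a subunit of the interleukin 23 receptor, had 109 UMIs in 2 Jα18-deficient cells, of which 1 cell held 108. The place of Il23r in the count therefore rests on 1 cell and is no result. Aqp3, a water channel, was at 2.17 CPM in WT, 10.2 CPM in Jα18-deficient and 2.41 CPM in CD1d-deficient cells. With Aqp3 alone left, and at a low level in WT, no direction of the programme is read from the count.

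To place the factors among kinds of cells, cells were gated on surface-receptor transcripts, with 2 or more UMIs taken as positive and 0 as negative. Cd8a encodes the CD8α chain, Cd4 the CD4 coreceptor, and the 20 Klra genes of the matrix encode the Ly49 family of receptors for MHC class I. The Cd8a+ Ly49+ class held 27 WT, 150 Jα18-deficient and 151 CD1d-deficient cells, and the Cd8a- Cd4- Ly49+ class held 80, 216 and 99. The Cd4+ class held 73, 8 and 2 cells, and the Cd8a+ Ly49- class 3, 5 and 8. The Cd8a- Cd4- Ly49- class, which served as the reference, held 193, 36 and 30 cells. A further 654 cells fell between the gates and were in no class. The deficient pools were thus richer in Ly49+ cells and poorer in Cd4+ and receptor-negative cells than the WT pool.

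UMIs were summed per pool and class where a class had at least 5 cells, which gave 13 sums, and 9440 genes were tested with edgeR's quasi-likelihood test with terms for class and pool. Pools of different genotypes acted as replicates, so that a difference had to be shared by genotypes. Of the 8 factors, 7 had enough counts to be tested, Eomes being the exception. In Cd8a+ Ly49+ cells 0 of the 7 factors were called, against 0.318% of all genes, in the Cd8a+ Ly49- class 0 of 7 against 0.53%, in Cd4+ cells 0 of 7 against 0.0106%, and in Cd8a- Cd4- Ly49+ cells 0 of 7 against 0.159%. At an unadjusted p under 0.05, the same 4 contrasts gave 2, 2, 0 and 1 factors, out of 512, 1430, 302 and 281 genes. DESeq2 called 1, 1, 0 and 0 factors, against 1.05%, 3.99%, 0.392% and 0.413% of all genes. In simulated counts of this design DESeq2 called 39, 12, 37 and 28 unchanged genes in the 4 contrasts, and edgeR 2, 1, 2 and 1, so calls by DESeq2 alone carry less weight. Of genes changed 8-fold, however, edgeR recovered only 24%, 10%, 22% and 30%, and DESeq2 46%, 20%, 36% and 48%. The 0 calls by edgeR are thus no evidence that a factor was unchanged. The cells were gated on transcripts from the same libraries, and median depth differed between the classes as well, from 5956.5 to 71323.5 UMIs per cell over the 13 sums.

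Rora came nearest to a call. In Cd8a+ Ly49+ cells it was at 45.1 CPM in WT, 110 CPM in Jα18-deficient and 74.2 CPM in CD1d-deficient cells. In the reference class it was at 242, 240 and 339 CPM, so each genotype had a lower Rora level in Cd8a+ Ly49+ cells and the levels of the 2 classes did not overlap. The 339 CPM came from 160 UMIs in 30 CD1d-deficient cells, of which 1 held 10 or more. Thinned shares had the same direction, at 12.5%, 20.0% and 12.7% of Cd8a+ Ly49+ cells against 43.5%, 39.1% and 5 of 10 reference cells. The intervals of these shares were apart in WT and overlapped in both deficient pools. The fitted log2 fold change was -1.91 (SE 0.52), with an unadjusted p of 0.00083 and an adjusted p of 0.16 by edgeR's quasi-likelihood test. Over the alternatives the log2 fold change of Rora stayed negative, and it was called by DESeq2 (-1.92), without the Jα18-deficient pool (-2.24), with thinned cells (-1.70) and with cells of the stated filter (-1.98). It was weaker and not called with gates at 1 UMI (-1.16) and at 10 UMIs (-1.18). In Cd8a- Cd4- Ly49+ cells Rora lay between, at 168, 133 and 87.0 CPM, with a log2 fold change of -1.13 (SE 0.51) and an adjusted p of 0.9999 by the same test. In Cd4+ cells it was at 221 CPM in WT and 230 CPM in Jα18-deficient cells, near the reference of those pools.

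Maf had the same direction in 2 of the 3 pools. It had 1 UMI in the 27 WT Cd8a+ Ly49+ cells, or 0.704 CPM (0.0178 to 3.92), against 80.6 CPM in the WT reference. In Jα18-deficient cells it was at 9.30 CPM against 183 CPM, and in CD1d-deficient cells at 27.7 CPM against 12.7 CPM, where the reference value came from 6 UMIs. In the Jα18-deficient reference only 2 of 36 cells held 10 or more Maf UMIs. The thinned shares in that pool were 7 of 140 Cd8a+ Ly49+ cells against 3 of 23 reference cells. The edgeR log2 fold change was -3.66 (SE 1.21) with an adjusted p of 0.42, and Maf was called without the CD1d-deficient pool (-4.67) and with a gate at 5 UMIs (-4.59). It was weaker and not called with cells of the stated filter (-1.94), without the Jα18-deficient pool (-2.35) and with thinned cells (-2.67). In Cd4+ cells Maf was at 91.3 CPM in WT, near the WT reference. In the 8 Jα18-deficient Cd4+ cells it was at 4.43 CPM, from 1 UMI, against the 183 CPM of their reference. The thinned shares there were 0 of 8 against 3 of 23 cells, so no difference is read from these levels.

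Runx3 was at 190 CPM in WT, 156 CPM in Jα18-deficient and 171 CPM in CD1d-deficient Cd8a+ Ly49+ cells. The reference class had 102, 72.0 and 102 CPM, so Runx3 was higher with Cd8a and Ly49 in each pool, without a call. Cells without Cd8a shared this order, since Cd8a- Cd4- Ly49+ cells had 131, 121 and 159 CPM. In the small Cd8a+ Ly49- class it was at 190 CPM in the Jα18-deficient and 323 CPM in the CD1d-deficient pool, with a log2 fold change of 1.46 (SE 0.62) and an adjusted p of 0.27 by edgeR's test. DESeq2 called that difference at 1.83. In that class, whose sums rest on 5 and 8 cells, the median of all genes was itself at -1.10 on the log2 scale. Tbx21 was at 59.3 and 56.2 CPM there against 184 and 117 CPM in the reference, a log2 fold change of -1.56 (SE 0.68) with an adjusted p of 0.28 by the same test, not far below the median of all genes.

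Zbtb7b was at 0.704 CPM in WT Cd8a+ Ly49+ cells, from 1 UMI, against 42.1 CPM in the WT reference and 28.3 CPM in WT Cd4+ cells. In the Jα18-deficient pool the same classes had 12.8, 38.0 and 22.1 CPM, and in the CD1d-deficient pool Cd8a+ Ly49+ cells had 13.3 CPM against 6.36 CPM in the reference, from 3 UMIs. Zbtb16 was at 1.41 CPM in WT Cd8a+ Ly49+ cells, from 2 UMIs, and at 60.0 CPM in WT Cd4+ cells, 38.1 CPM in Cd8a- Cd4- Ly49+ cells and 31.7 CPM in the reference. The thinned shares of Zbtb16 and Zbtb7b were 1 and 0 of 24 WT Cd8a+ Ly49+ cells, with intervals up to 21.1% and 14.2%. In the WT reference they were 10.5% and 12.9%, and only 5 and 6 of 193 cells held 10 or more UMIs. The intervals of the 2 classes overlapped, so an absence of either factor is not read from these few cells. Gata3 was at 100, 143 and 161 CPM in Cd8a+ Ly49+ cells against 299, 210 and 248 CPM in the reference, lower in level in each pool but without a call. Its thinned shares were 29.2% against 56.5% in WT and 42.2% against 7 of 10 cells in the CD1d-deficient pool. In the Jα18-deficient pool the share was not lower, at 45.7% against 43.5%. Tbx21 levels showed no common order, at 175, 265 and 203 CPM against 210, 184 and 117 CPM. Eomes was at 0 in the reference class of all pools and at 3.74 CPM in WT, 7.11 CPM in Jα18-deficient and 1.93 CPM in CD1d-deficient Cd8a- Cd4- Ly49+ cells, the last from 4 UMIs. In the CD1d-deficient pool most Eomes lay outside the classes, at 8.06 CPM in the 97 cells between the gates.

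**Figure D2:**
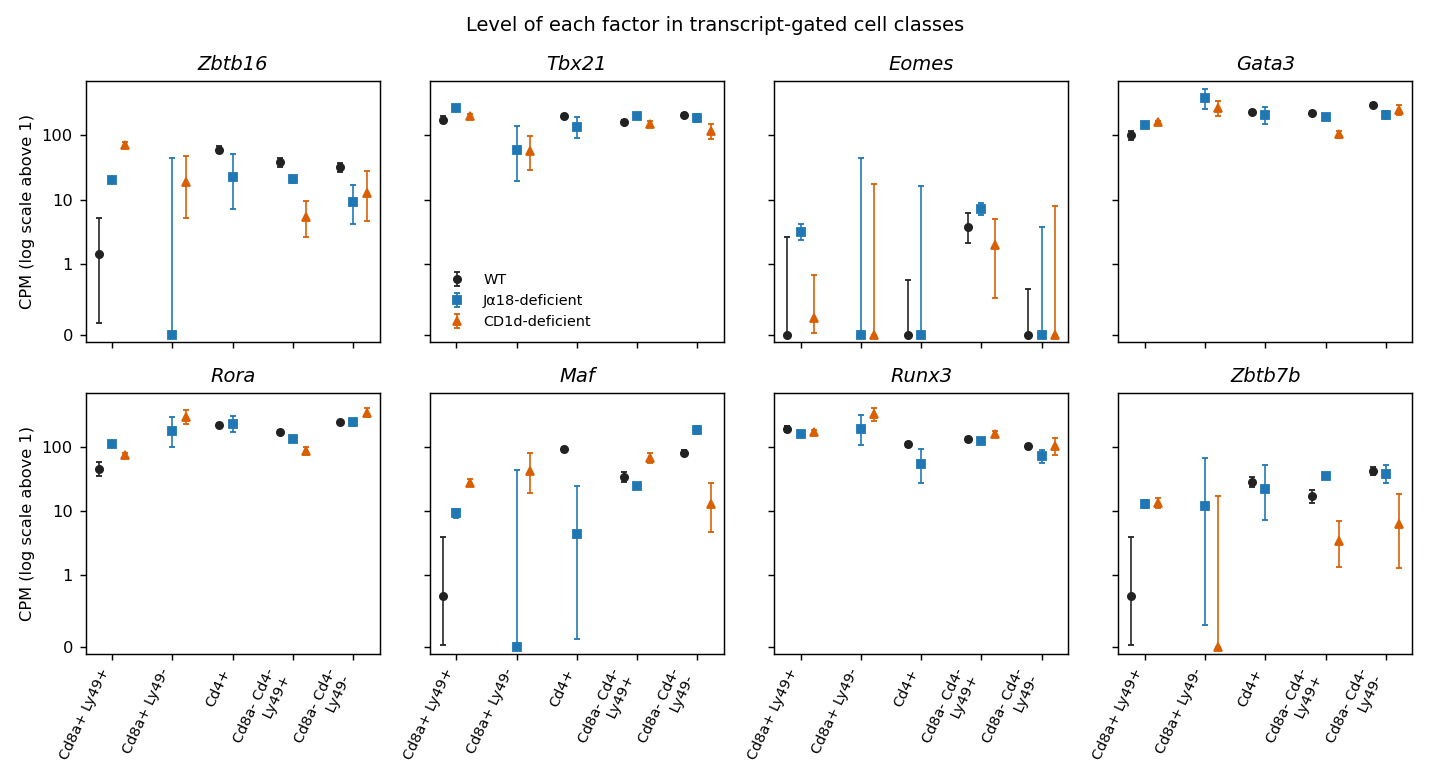
Level of each factor in CPM (logarithmic above 1 and linear below) in 5 classes of cells gated on Cd8a, Cd4 and Klra transcripts, with 1 point per genotype pool of at least 5 cells and exact 95% Poisson intervals. Rora sits lower in Cd8a+ Ly49+ cells (45.1 to 110 CPM) than in Cd8a- Cd4- Ly49- cells (240 to 339 CPM) in every pool, Runx3 sits higher, and Tbx21 has no common order. The 339 CPM is the CD1d-deficient pool, where 1 of 30 cells held 10 or more Rora UMIs.

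The effector genes gave calls in the same fits where the factors did not. In Cd8a+ Ly49+ cells, 6 of the 15 tested genes of the NKT1 programme were higher and 0 lower, with a median log2 fold change of 1.01 against 0.07 over all genes. The largest were Gzma at 5.26 (SE 0.55, adjusted p = 4.61e-08 by edgeR), Ncr1 at 4.34 (SE 0.90, adjusted p = 0.011) and Gzmb, encoding granzyme B, at 2.88 (SE 0.41, adjusted p = 2.92e-05). The study had already described Gzma, Gzmb, Ncr1 and Xcl1 in a subset of these same cells with high Cd8a. The list was chosen with earlier results of these data known, so its counts are no independent support. In Cd8a- Cd4- Ly49+ cells 3 of 15 were higher and 0 lower, with Ncr1 at 4.19, Gzma at 3.21 and Ccl5 at 1.54. In the Cd8a+ Ly49- class 2 of 15 were higher and 0 lower, with Gzma at 2.16 and Ccl5 at 1.67. Of 3 tested genes of the NKT17 programme, only Tmem176b, which encodes a membrane protein, was called, lower by a log2 fold change of -3.51 in Cd8a+ Ly49+ and -4.30 in Cd8a+ Ly49- cells. Of 10 tested genes of the NKT2 programme and 16 tested partner factors, 0 were called in any of the 4 classes by edgeR. Gzma and Ccl5 were thus called in each class except Cd4+ cells, and Tbx21, the factor that directs NKT1 cells, in none. In the simulated counts edgeR recovered 2%, 0%, 0% and 2% of genes changed 2-fold in the 4 contrasts. Of genes changed 4-fold it recovered 10%, 4%, 6% and 14%. A Tbx21 difference of such a size would mostly have been missed, so the test does not set the factor apart from the effector genes.

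Whether the regulators of the subsets exclude each other was read in single cells. The sort left out NK1.1- NKT cells, and Il17a, Il17f and Il22 had no UMI in any pool. The reading therefore covers the sorted NK1.1+ cells only, and it cannot speak for subsets that were not sampled. For each pair, the number of thinned cells with both transcripts was set against the number expected if the transcripts were spread independently over the cells of the pool. T-bet and GATA3 direct opposed programmes in helper T cells, yet Tbx21 and Gata3 were found together in 141 of 523 WT cells, where 143.7 were expected. In Jα18-deficient cells 200 of 632 held both, with 186.3 expected, and in CD1d-deficient cells 48 of 227, with 49.8 expected. The ratios of observed to expected were 0.98, 1.07 and 0.96. Of the WT cells with Gata3, 54.2% also held Tbx21, and of all thinned WT cells 55.3% did. Neither exclusion nor preference was seen in the sorted cells at this depth.

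The same held at other depths. Thinning to 5000 or to 20000 UMIs gave ratios of 0.96 to 1.04 over the 3 pools, and cells without thinning gave 1.05 to 1.11. In WT cells of the Cd8a- Cd4- Ly49- class alone, 36 of 124 cells held both, with 39.0 expected. Among cells with 10 or more UMIs of each, without thinning, 68 WT cells held both with 57.5 expected, 96 Jα18-deficient cells with 75.2 and 22 CD1d-deficient cells with 12.5. Those ratios of 1.18, 1.28 and 1.76 came with a difference in depth, since cells with 10 or more Tbx21 UMIs had a median of 72390 UMIs in WT and cells with none 37681. The part of depth in these ratios was not tested beyond the thinned values above.

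With Rora as the third factor, all 8 combinations occurred at about the share that independence gives. Cells with Tbx21, Gata3 and Rora together made up 11.5% of WT cells with 11.5% expected, 8.23% of Jα18-deficient cells with 8.25% expected and 3.08% of CD1d-deficient cells with 3.48% expected. Cells with Tbx21 as the only one of the 3 made up 18.4%, 20.6% and 22.5%, against 16.2%, 22.8% and 23.0% expected. Cells with Gata3 alone made up 11.7%, 11.6% and 19.8%, and cells with Rora alone 9.37%, 5.85% and 3.52%. The median number of the 8 factors per thinned cell was 2 in each pool, and 5 or more factors were found in 12 WT, 8 Jα18-deficient and 2 CD1d-deficient cells.

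**Figure D3:**
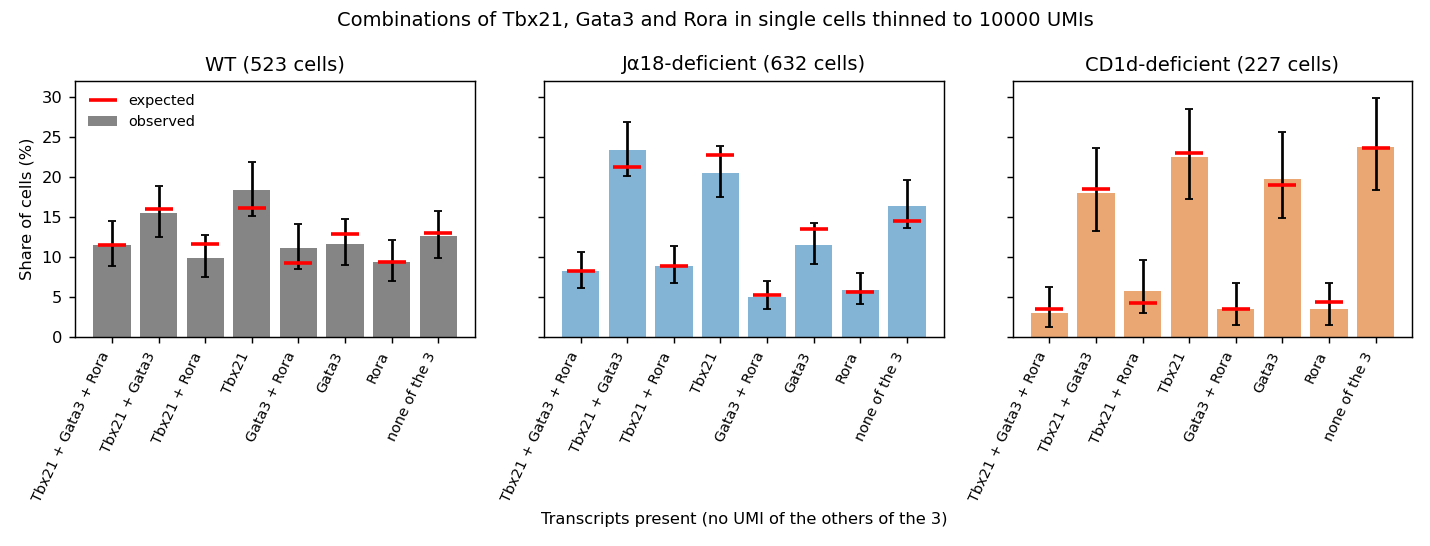
Share of thinned cells (%) with each combination of Tbx21, Gata3 and Rora transcripts in WT, Jα18-deficient and CD1d-deficient cells; bars are observed shares with exact 95% intervals and red marks are the shares expected if the 3 were independent. All red marks lie within the intervals, for example 11.5% observed and 11.5% expected for the 3 together in WT cells.

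Across pairs with at least 5 cells expected, the observed-to-expected ratio had a median of 0.99 over 21 pairs in WT (0.68 to 1.39), 1.06 over 20 pairs in Jα18-deficient cells (0.78 to 1.49) and 1.09 over 9 pairs in CD1d-deficient cells (0.94 to 1.55). The pairs share the same cells and are not independent of each other. In WT cells the lowest was Maf with Runx3, at 18 cells with 26.3 expected, and next came Maf with Zbtb7b, at 7 with 9.84 expected. The Maf and Runx3 pair was at 17 with 16.1 expected in Jα18-deficient cells and at 12 with 7.73 expected in CD1d-deficient cells, so its low value was not shared. The highest in WT was Zbtb16 with Maf, at 15 cells with 10.8 expected. Zbtb16 with Gata3 was above 1 in WT and in Jα18-deficient cells, at 41 with 33.8 expected and 31 with 24.1 expected. Zbtb16 with Tbx21 was at 37 with 37.6 expected in WT and 34 with 30.5 expected in Jα18-deficient cells. Runx3 and Zbtb7b, which oppose each other in CD4 and CD8 T cells, were at 20 with 19.7 expected in WT and 18 with 21.5 expected in Jα18-deficient cells.

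**Figure D4:**
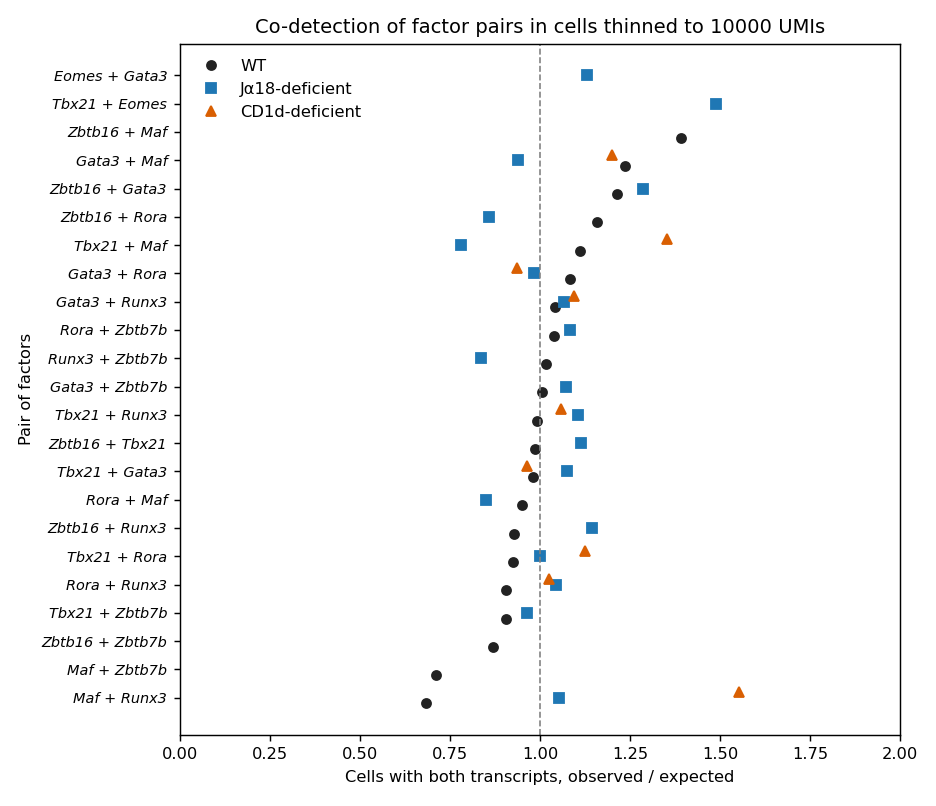
Ratio of observed to expected thinned cells with both transcripts, for each pair of factors with at least 5 cells expected, in WT, Jα18-deficient and CD1d-deficient cells; the dashed line at 1 marks independence. The 3 points of Tbx21 with Gata3 lie at 0.96 to 1.07, and all pairs shown lie within 0.68 to 1.55.

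The cells with the most Eomes were read one by one. All 9 cells with 10 or more Eomes UMIs held at least 3 Tbx21 UMIs, and 6 of them held 10 or more. In the same 9 cells Rora was at 3 UMIs or fewer, Maf at 2 or fewer, Zbtb16 at 1 or 0, and Zbtb7b at 0. Such absence was the rule, since 1333 of all 1735 cells had no Maf, 1492 no Zbtb16 and 1416 no Zbtb7b UMI. The WT cell held 13 Eomes, 42 Tbx21, 24 Runx3, 3 Gata3 and 83 Klra UMIs. The Jα18-deficient cell with the most Eomes held 41 Eomes, 52 Tbx21, 38 Runx3, 0 Gata3 and 15 Klra UMIs, and the CD1d-deficient cell held 19 Eomes, 9 Tbx21, 47 Runx3 and 1 Klra UMI. Other transcripts varied widely among the 9 cells, with Gata3 from 0 to 34 UMIs, Runx3 from 0 to 47, Cd8a from 0 to 130 and Ncr1 from 0 to 159. In 8 of the 9 cells Klra transcripts were at 5 UMIs or more, and Cd3e ranged from 1 to 46 UMIs. Among thinned Jα18-deficient cells, 10 of the 11 Eomes+ cells held Tbx21, with 6.72 expected, and all 11 held a Klra transcript, with 7.80 expected. In WT 1 of 2 Eomes+ cells held Tbx21, with 1.11 expected, and both held Klra, with 0.558 expected. In the CD1d-deficient pool all 3 held Tbx21, with 1.48 expected, and 2 held Klra, with 2.34 expected. The share of Eomes+ cells was not above that of Spi1 in any pool, so no association is read from these counts.

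The factors were also set against the surface receptors cell by cell, which is the view of the classes above without gates. In WT cells Rora was found with a Klra transcript in 41 cells, where 61.1 were expected, and with Cd8a in 11, where 20.5 were expected. Of WT cells with Klra transcripts 28.1% held Rora, and of all WT cells 41.9% did. The deficient genotypes had weaker forms of this, with ratios for Rora and Klra of 0.90 in Jα18-deficient and 0.85 in CD1d-deficient cells. Among WT cells with 10 or more UMIs, only 7 held both Rora and Klra transcripts, with 27.0 expected. Runx3 went the other way in WT cells, found with Cd8a in 26 cells with 15.6 expected and with Klra transcripts in 62 with 46.3 expected. Its ratio with Cd8a was above 1 in each genotype, at 1.67, 1.23 and 1.13.

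Maf and Cd8a were found together in 1 WT cell with 7.78 expected, 5 Jα18-deficient cells with 8.44 expected and 3 CD1d-deficient cells with 6.94 expected. Zbtb7b and Cd8a were together in 3 WT cells with 5.81 expected and 3 Jα18-deficient cells with 11.3 expected. In the CD1d-deficient pool fewer than 5 such cells were expected, and 4 of the 5 cells with 10 or more Zbtb7b UMIs were in the Cd8a+ Ly49+ class. In WT and Jα18-deficient cells the direction of Runx3 and Zbtb7b with Cd8a was thus the one known from conventional T cells. In WT the Zbtb7b part is not clear of counting error. Cd8a was in 4.84% of Zbtb7b+ cells (1.01 to 13.5%) and in 9.98% of the others. With Cd4, the ratios in these 2 pools were 0.98 and 0.95 for Runx3 and 1.17 and 1.32 for Zbtb7b. The 2 factors did not avoid each other in single thinned cells, while their levels over the 13 sums had a Pearson's r of -0.73. Zbtb16 and Cd4 were together in 26 WT cells with 18.7 expected and in 10 Jα18-deficient cells with 6.09 expected. With Cd8a, Zbtb16 was found in 6 WT cells with 6.37 expected and in 2 Jα18-deficient cells with 10.05 expected, so that its low value there was not shared by WT. Thinned cells with a Tbx21 UMI were spread evenly over cells with and without Klra transcripts, with ratios of 1.004, 0.998 and 1.03. At 10 or more UMIs without thinning, the ratios of Tbx21 with Klra were 1.05 in WT, 1.17 in Jα18-deficient and 1.12 in CD1d-deficient cells. Cells with so much Tbx21 were also deeper, with a median of 112304 UMIs against 33211.5 in Jα18-deficient cells without Tbx21. The part of depth was not tested.

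**Figure D5:**
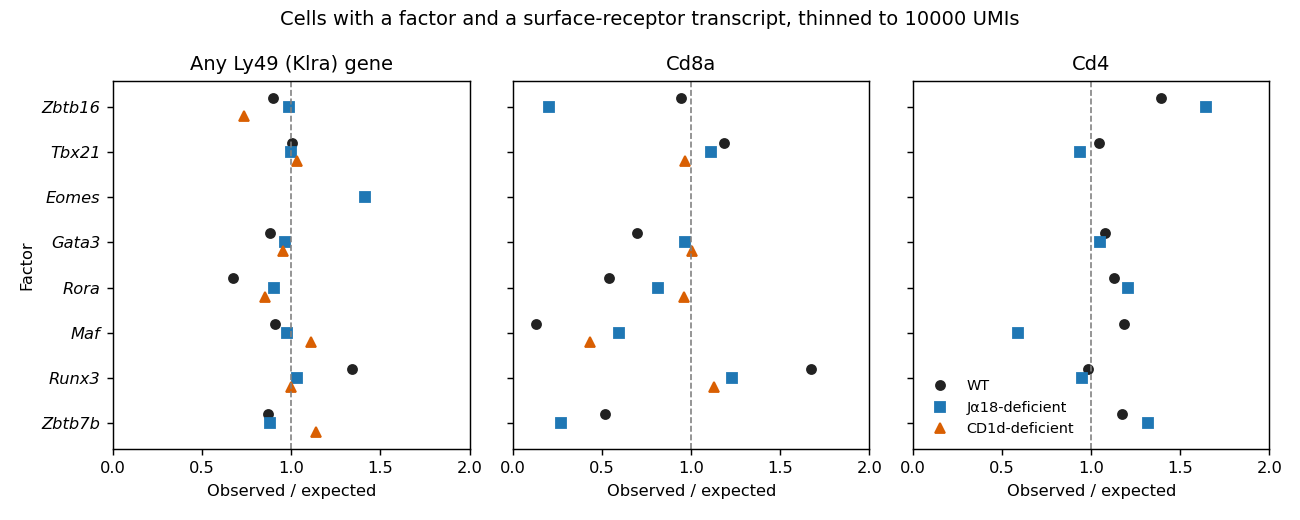
Ratio of observed to expected thinned cells that held a factor and a receptor transcript (any Klra gene, Cd8a or Cd4), where at least 5 cells were expected, in WT, Jα18-deficient and CD1d-deficient cells; the dashed line at 1 marks independence. Rora lies left of 1 for Klra in every genotype (0.67, 0.90 and 0.85), Runx3 lies right of 1 for Cd8a (1.67, 1.23 and 1.13), and Tbx21 lies near 1 for Klra.

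The genes whose level followed each factor most closely over the 13 sums were named by Pearson's r of log2(CPM + 1), among 6865 genes with a mean of at least 10 CPM. These are descriptions, since the sums share pools and depth and since the top of so many genes will be high. For Rora they were Cd40lg (0.87), which encodes the CD40 ligand of activated T cells, Bcl2a1d (0.84), of the BCL2 family, and Clk1 (0.84), a kinase. For Gata3 they were Fkbp1a (0.82), F2rl2 (0.82) and Cd84 (0.82), a receptor of the SLAM family. For Tbx21 they were Pygo2 (0.95), Slc11a2 (0.95) and Mrps25 (0.95), and for Runx3 Card19 (0.93), Pygl (0.92) and Msh3 (0.90). For Zbtb16 they were Wipi2 (0.91), Tbc1d9b (0.88) and Bola1 (0.88), for Maf Mrpl47 (0.92), Eps15 (0.89) and Srm (0.89), and for Zbtb7b Kcnk5 (0.91), Hacd3 (0.90) and Rpl5 (0.90). Eomes was below the minimum level. None of the 8 factors was among the 3 genes most like another.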

How the data were processed

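The deposited matrix holds UMI counts per gene and cell, which the authors made, per their methods and processing notes, by trimming reads with cutadapt 1.15, aligning them to mm9 with TopHat2 2.0.12, removing duplicates by UMI and counting with HTSeq 0.10.0. The values are whole numbers without normalization. The cell names carry no library, so pools were used and genotypes were not tested. The factors and gene lists were chosen with earlier results of these data known.

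Python 3.11.15, numpy 2.4.6, pandas 2.3.3 and scipy 1.17.1 gave levels, shares and co-detection. Ratios needed 100 UMIs in a pair of pools and were counted past 2-fold. Class sums of at least 5 cells were fitted in R 4.3.3 with edgeR 4.0.16 (quasi-likelihood test, TMM, filterByExpr, 6 residual degrees of freedom), and a call needed a Benjamini-Hochberg adjusted p below 0.05 with an ln fold change beyond 0.25 in size. DESeq2 1.42.0 was the alternative, and the fit was tested on simulated data. Doublets were not called, because cells were picked by hand. All 8 factors were named, with the 3 genes of largest fold among those called of each list and the 3 genes most like each factor. Of the listed genes, Zfp683 was not analysed here and 1 other is not reported here. Fitted fold changes are printed for factors with an unadjusted p under 0.05. Figures were drawn with matplotlib 3.10.9.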

Additional observations from a re-analysis of the deposited data

Results flagged for a closer look

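In 3 cases a factor was higher in a class than in Cd8a- Cd4- Ly49- cells in 1 genotype pool and lower in another, with counting intervals on opposite sides of 0. The difference between pools was not tested, since each genotype was 1 pool. Zbtb16 in Cd8a+ Ly49+ cells had a log2 ratio of -4.49 in WT, 1.149 in Jα18-deficient and 2.49 in CD1d-deficient cells. The WT value came from 2 UMIs in 27 cells. The Jα18-deficient value rested on 4 cells with 10 or more Zbtb16 UMIs, and the thinned share went the other way, at 7 of 140 cells against 2 of 23 reference cells. The CD1d-deficient value rested on 2 cells with 10 or more Zbtb16 UMIs, and the thinned share of cells was 1.96% there against 1 of 10 cells in the reference class. Tbx21 in Cd8a+ Ly49+ cells had a log2 ratio of -0.26 in WT, 0.52 in Jα18-deficient and 0.80 in CD1d-deficient cells. Its thinned share went the other way in WT, at 66.7% of 24 cells against 55.6% of 124 cells, and in Jα18-deficient cells, at 67.1% of 140 cells against 73.9% of 23 cells. Maf in Cd8a- Cd4- Ly49+ cells had a log2 ratio of -1.25 in WT, -2.89 in Jα18-deficient and 2.41 in CD1d-deficient cells. In the CD1d-deficient pool, 1 cell of that class held 10 or more Maf UMIs, and the thinned share was 6.25% against 1 of 10 cells. In the Jα18-deficient reference 2 cells held 10 or more Maf UMIs, and the thinned share in that pool was 10.4% against 3 of 23 cells.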

How the results depend on the processing

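The count of factors past 2-fold between Jα18-deficient and WT cells was 2, and 1 with cells weighted equally, when Maf was at -0.77. Between the deficient genotypes it was 1, 2 with thinned cells and 3 without the 5 top cells, the last an alternative added after the data were seen, and past 1.5-fold the counts were 5 and 4. The Maf ratio between the deficient genotypes reversed to -0.51 with cells weighted equally and to -0.28 without the 5 top cells. Maf between CD1d-deficient and WT cells was -0.52 with thinned cells, and Zbtb16 was -0.10, but -1.30 thinned and -4.09 without the 5 top cells. The ratio of observed to expected cells with Tbx21 and Gata3 moved to 1.18, 1.28 and 1.76 at 10 or more UMIs without thinning, also added later. In Cd8a+ Ly49+ cells, the 0 factors called became 1 with DESeq2, a gate at 5 UMIs, thinned cells or cells of the stated filter, and 0 to 1 when a pool was left out, namely Rora without the Jα18-deficient and Maf without the CD1d-deficient pool. In Cd8a+ Ly49- cells DESeq2 called 1, and the Tbx21 fold change there reversed to 0.19 with a gate at 10 UMIs. Genes called in the 4 classes were 30, 50, 1 and 15 by edgeR and 99, 377, 37 and 39 by DESeq2. The causes were not tested. No paired analysis was possible because the cell names carry no library number. The 0 calls among factors say little, since 13 sums from 3 pools detect only large differences and CD1d-deficient cells were the shallowest.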
